A study of Mus musculus with 3 samples.

Results

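The genes described here are 6 markers of the neuronal cytoskeleton and of neuronal glycolysis, namely Nefm, Tubb3, Mapt, Stmn2, Gap43 and Eno2. They were picked out by gene symbol, with earlier results of these data known. All 6 were found, each as 1 spot on the array, among 17185 named genes. RNA came from the mouse neuroblastoma line N1E-115 and was hybridised to 3 spotted arrays, each of which carried 2 RNAs in 2 colours. The green channel (Alexa555) held RNA of cells transfected with the plasmid pEGFP-C1, which makes EGFP alone, and the red channel (Alexa647) held RNA of cells that received pEGFP-NaV1.2CT-Flag. That plasmid encodes EGFP joined to 229 amino acids of the intracellular C-terminal end of NaV1.2, a voltage-gated sodium channel of neurons (gene Scn2a of the mouse), and is called NaV1.2CT here. Both groups were N1E-115 cells transfected for 48 h and differed in the plasmid, with 1 array labelled 5 mM glucose (low glucose) and 2 arrays labelled 20 mM glucose (high glucose). RNA of 3 dishes was pooled, the labels mention no selection of transfected cells, and they leave unsaid whether separate cultures stand behind the arrays, so the spread between arrays may be technical. The glucose levels come from the labels of the samples, whereas the protocol for cell growth lists only a low-glucose DMEM. All arrays had the same dye orientation, and an effect of the dyes on a probe therefore cannot be told apart from an effect of the plasmid.

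The neuronal cytoskeleton combines neurofilaments, which set the calibre of axons, with microtubules, which carry axonal transport. Nefm encodes the medium neurofilament subunit, Tubb3 a beta tubulin found mostly in neurons, Mapt the microtubule-binding protein tau, and Stmn2 (SCG10) a stathmin that destabilises microtubules in growth cones. Gap43 is a membrane-attached phosphoprotein of growth cones, and Eno2 is the gamma enolase (neuron-specific enolase), which replaces the ubiquitous alpha enolase as neurons mature. All 6 are widely used as markers of neuronal and neuroblastoma cells, and Nefm, Gap43 and Stmn2 are commonly followed when neuroblastoma lines extend neurites.

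Values below are log2 ratios of NaV1.2CT over EGFP, so 0 means equal signal and a positive value means more signal with NaV1.2CT. Background was corrected with the normexp model. The ratio was then brought toward 0 across the range of brightness within each of the 48 print blocks (loess per print block). Plain median centring of each array is given beside it. After the loess the brightest probes, above an average log2 intensity of 15, kept medians of 0.13 to 0.14. Across 21761 probes the log2 ratios had an SD of 0.0993 to 0.111 per array, and the pairwise correlation of arrays over probes was 0.32 to 0.48. The number of arrays limits the precision, and no spot of the 6 genes fell to the level of the empty spots (their 95th percentile) in either channel of any array. Of markers that the N1E-115 label calls for, 7 of 7 measured neuronal genes and 11 of 11 measured sympathoadrenal genes were above that level on every array. The same held for 7 of 8 glial, 5 of 8 fibroblast and 3 of 4 muscle markers, so detection on these arrays did not separate cell types. The summed raw signal of the neuronal markers was 15836 to 18425 with EGFP and 14238 to 14923 with NaV1.2CT, and that of the glial markers was 42969 to 44275 and 42154 to 49849. These sums are not normalized between the 2 dyes. After loess the median log2 ratio over the 3 arrays was -0.031 for the neuronal and -0.014 for the glial markers. No marker of the neuronal, glial, fibroblast or muscle lists passed the test over the 3 arrays described next, and 1 sympathoadrenal marker did, the LIM homeobox gene Isl1 at 0.18 (limma, adjusted p = 0.0420).

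Over the 3 arrays, the neurofilament gene Nefm was higher with NaV1.2CT by 0.16 on the log2 scale, a 1.12-fold ratio. Eno2, the neuronal enolase, was lower, with a log2 ratio of -0.18 or 1.13-fold, a direction that turned when the arrays were only median-centred. In RNA of whole dishes, a change per cell and a change in the share of cells that hold a transcript cannot be told apart. These 2 of the 6 genes, Nefm and Eno2, passed limma's test at an adjusted p under 0.05, where 3.85% of all probes passed, 1.17% higher and 2.68% lower. The other 4 genes, Mapt, Gap43, Tubb3 and Stmn2, had mean log2 ratios between -0.029 and 0.11 and did not pass. At high glucose alone, with 2 arrays, 0 of the 6 genes passed limma's test, against 2.11% of all probes. At an unadjusted p under 0.05 limma counted 3 of the 6 there (Nefm, Eno2 and Mapt), against 22.2% of all probes. The 3-array comparison shares both high glucose arrays with the high glucose comparison, so the second gives no separate evidence for the first.

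**Figure D1:**
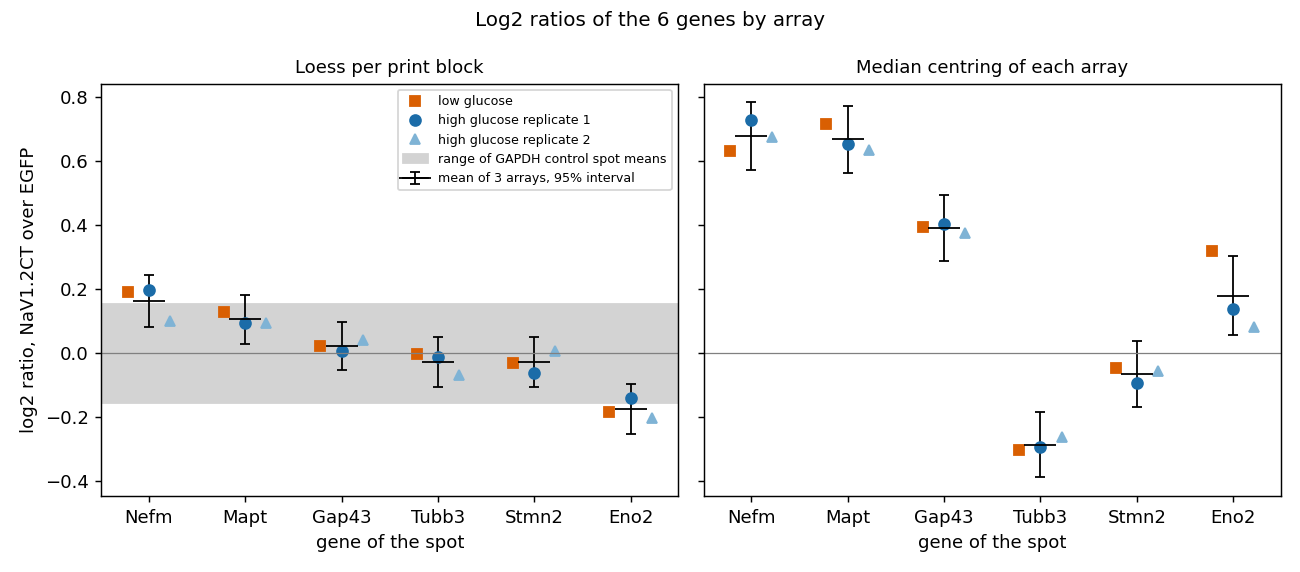
Log2 ratio of NaV1.2CT over EGFP (vertical axis) for the 6 genes (horizontal axis) on each array, after loess per print block (left) and after median centring (right). Coloured points are arrays, black marks are means of 3 arrays with limma's 95% interval, and the grey band spans the 3-array means of 231 GAPDH control spots, from -0.16 to 0.15. On the left the Nefm mean lies above and the Eno2 mean below the band, whereas on the right Eno2 lies above 0 on every array. The band is of GAPDH alone, and the share of all probes beyond it was not counted.

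Nefm (identifier NM_008691 in the files) was read from a bright spot. Its raw intensity at low glucose was 20130 with EGFP and 26384 with NaV1.2CT. On the first high glucose array it was 19221 and 26547, and on the second it was 25681 and 33588, in the same order. The red channel was therefore the brighter one on all 3 arrays before any normalization. Over all gene spots the median raw intensity was 1706, 1172 and 1106 with EGFP. With NaV1.2CT it was lower, at 1354, 946 and 890. Raw readings are not corrected for brightness or dye. After loess per print block the log2 ratio was 0.19 at low glucose, 0.20 on the first and 0.10 on the second high glucose array. All 3 values were positive, and the second high glucose array gave the smallest. The mean was 0.16 ± 0.053 (SD, n = 3), with a standard error of 0.036, a 95% interval of 0.080 to 0.24 and an adjusted p of 0.0461 in limma. In limma the call ended without the low glucose array (adjusted p = 0.106) or the first high glucose array (0.170) and held without the second (0.0368). It also ended after a second loess (limma, adjusted p = 0.0519), without background correction (0.0689), with an offset of 0 (0.0883), with plain subtraction (0.173) and with the deposited net intensities (0.176 as given, 0.187 after loess). At high glucose the mean was 0.15 ± 0.068 (SD, n = 2), which limma gave an adjusted p of 0.106. The authors' deposited ratio, which divides EGFP by NaV1.2CT, was 0.873, 0.885 and 0.927 on the low and the 2 high glucose arrays, again on the side of more Nefm signal with NaV1.2CT. That ratio uses NaV1.2CT intensities rescaled before deposit, so it is not a reading free of normalization.

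Among the microtubule genes, Tubb3 (NM_023279) was read from a dim spot. Its raw intensity with EGFP was 466 at low glucose and 334 and 304 on the high glucose arrays. With NaV1.2CT it was 311, 215 and 191, which is 3.85 to 6.21 times the local background. The NaV1.2CT reading was thus the lower one on every array before normalization, as was the median over all gene spots. After loess per print block the log2 ratios were -0.0027, -0.014 and -0.070. With median centring of each array alone they were -0.30, -0.29 and -0.26. The mean was -0.029 ± 0.036 (SD, n = 3) with a 95% interval of -0.11 to 0.050, and limma's adjusted p was 0.651.

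Mapt (NM_010838), the tau gene, was bright in both channels. Raw intensity with EGFP was 28539 at low glucose and 30623 and 29732 at high glucose. With NaV1.2CT it was 39705, 40151 and 37766, higher on each array. The log2 ratios after loess were 0.13, 0.094 and 0.095, all positive and close together. Their mean was 0.11 ± 0.019 (SD, n = 3), with a 95% interval of 0.029 to 0.18 and an adjusted p of 0.107 in limma, so Mapt was not called. The spot lay at an average log2 intensity (A) just above 15 on every array. Probes above an A of 15 had a median log2 ratio of 0.13 to 0.14 after the same loess. Those with an A between 14 and 15 had medians of -0.019 to -0.0038. Mapt lay at the border of both groups, with values close to or below the first medians and above the second.

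Stmn2 (NM_025285), the growth cone stathmin, had raw intensities of 2281, 1355 and 1060 with EGFP on the low and the 2 high glucose arrays. With NaV1.2CT they were 1868, 1061 and 834. The log2 ratios after loess were -0.032, -0.062 and 0.0079, with both signs present. The mean was -0.029 ± 0.035 (SD, n = 3), its 95% interval ran from -0.11 to 0.050, and limma's adjusted p was 0.648.

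Gap43 (NM_008083), the growth cone phosphoprotein, had raw intensities of 22270, 28849 and 20647 with EGFP. With NaV1.2CT they were 24787, 31816 and 21929. The log2 ratios after loess were 0.022, 0.0052 and 0.040, all close to 0. The mean was 0.022 ± 0.017 (SD, n = 3), and its 95% interval of -0.054 to 0.099 leaves room for a ratio of either sign (limma, adjusted p = 0.723). The sign turned to -0.028 when 1 loess curve was used for the whole array.

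Eno2 (NM_013509), the neuronal enolase, had raw intensities of 31497 with EGFP and 33232 with NaV1.2CT at low glucose. On the high glucose arrays the EGFP readings were 17890 and 16452, and the NaV1.2CT readings were 16407 and 14234. The raw order of the channels thus differed between the glucose labels, with NaV1.2CT above EGFP at low glucose and below it on both high glucose arrays. After the loess the log2 ratio was -0.18 at low glucose, -0.14 on the first and -0.20 on the second high glucose array. All 3 values were negative and lay close together. The mean was -0.18 ± 0.032 (SD, n = 3), with a standard error of 0.035, a 95% interval of -0.25 to -0.098 and an adjusted p of 0.0343 in limma. Leaving out any single array ended the call, with limma's adjusted p at 0.0729 without the low glucose array, 0.0566 without the first and 0.0674 without the second high glucose array. The call held after a second loess (limma, adjusted p = 0.0337) and ended with an offset of 0 (0.0709), without background correction (0.05002), with plain subtraction (0.156) and with the deposited net intensities (0.157 as given, 0.167 after loess). At high glucose the mean was -0.17 ± 0.044 (SD, n = 2), which limma gave an adjusted p of 0.0729. The authors' deposited ratio of EGFP over NaV1.2CT was 1.16, 1.11 and 1.15, which is also less Eno2 signal with NaV1.2CT. That ratio uses NaV1.2CT intensities rescaled before deposit, so it is not a reading free of normalization. After background subtraction and rescaling, the low glucose NaV1.2CT value was 27180, against a raw 33232.

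**Figure D2:**
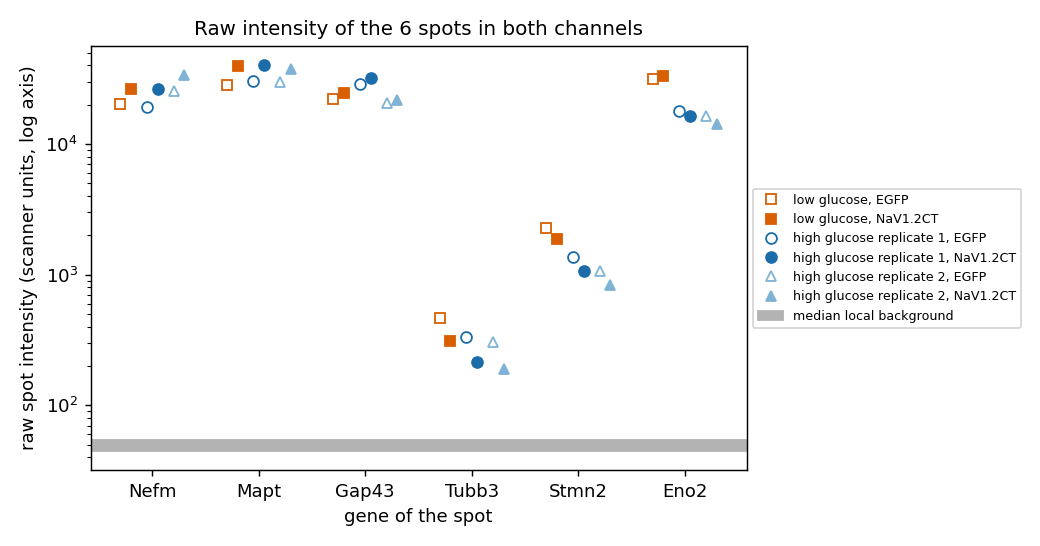
Raw spot intensity in scanner units (vertical log axis) of the 6 genes (horizontal axis), with open symbols for EGFP and filled symbols for NaV1.2CT on each array. The grey band is the range of the arrays' median local background. Filled symbols are above open ones on every array for Nefm, Mapt and Gap43, below them for Tubb3 and Stmn2, and change order with the glucose label for Eno2. Over all gene spots the median raw intensity was lower with NaV1.2CT on every array.

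Under median centring the picture of these genes was different. Nefm had log2 ratios of 0.63, 0.73 and 0.68 on the low and the 2 high glucose arrays, and Mapt had 0.72, 0.65 and 0.63. Gap43 had 0.40, 0.40 and 0.38, and Tubb3 had -0.30, -0.29 and -0.26. Stmn2 stayed near 0, at -0.046, -0.095 and -0.058. Eno2 had 0.32, 0.14 and 0.080, positive on all 3 arrays and thus opposite in sign to its values after loess. With these values 5 of the 6 genes passed limma's test over the 3 arrays, 4 higher and 1 lower, against 1 higher and 1 lower after loess. However, 40.4% of all probes then passed, 4293 higher and 4500 lower. The means were 0.68 for Nefm (limma, adjusted p = 9.53e-06), 0.67 for Mapt (9.75e-06), 0.39 for Gap43 (0.000180), -0.29 for Tubb3 (0.000962) and 0.18 for Eno2 (0.0272). Stmn2, at -0.066, did not pass (limma, adjusted p = 0.272). At high glucose 4 of the 6 passed under median centring, all but Stmn2 and Eno2, where 37.3% of all probes passed.

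The difference between both normalizations went with the brightness of the spots. Nefm, Mapt, Gap43 and Eno2 lay above the 94th percentile of A on every array. Of the 1306 probes above that percentile, 96.3% to 98.2% had a median-centred log2 ratio above 0, with array medians of 0.42 to 0.45. After loess per print block 53.2% to 55.9% of the same probes were above 0. A median-centred value above 0 was thus shared by nearly every bright probe, and the median-centred Eno2 values lay below the medians of these bright probes on all 3 arrays, as did those of Gap43, while those of Nefm and Mapt lay above. Tubb3 lay at the other end, between the 16.0th and the 18.9th percentile of A, and probes with an A between 8 and 9 had median-centred medians of -0.12 to -0.073. Over all probes, the print block explained 22.3% to 23.3% of the variance of median-centred ratios and 0.10% to 0.20% after loess per block. With median centring within each block the 3-array means were 0.62 for Nefm, 0.61 for Mapt, 0.47 for Gap43, 0.24 for Eno2 and -0.11 for Tubb3. Of these, Gap43 and Eno2 lay farther from their values after loess than under median centring of the whole array, and Nefm, Mapt and Tubb3 lay nearer. The part that loess removed at the 6 spots is given beyond the array median, as the median-centred value minus the value after loess. It was 0.44 to 0.57 for Nefm, 0.54 to 0.59 for Mapt, 0.34 to 0.40 for Gap43 and 0.28 to 0.50 for Eno2. It was -0.30 to -0.19 for Tubb3 and -0.065 to -0.014 for Stmn2. These removed amounts exceed the remaining log2 ratios of Nefm, Mapt, Gap43 and Eno2 on every array.

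**Figure D3:**
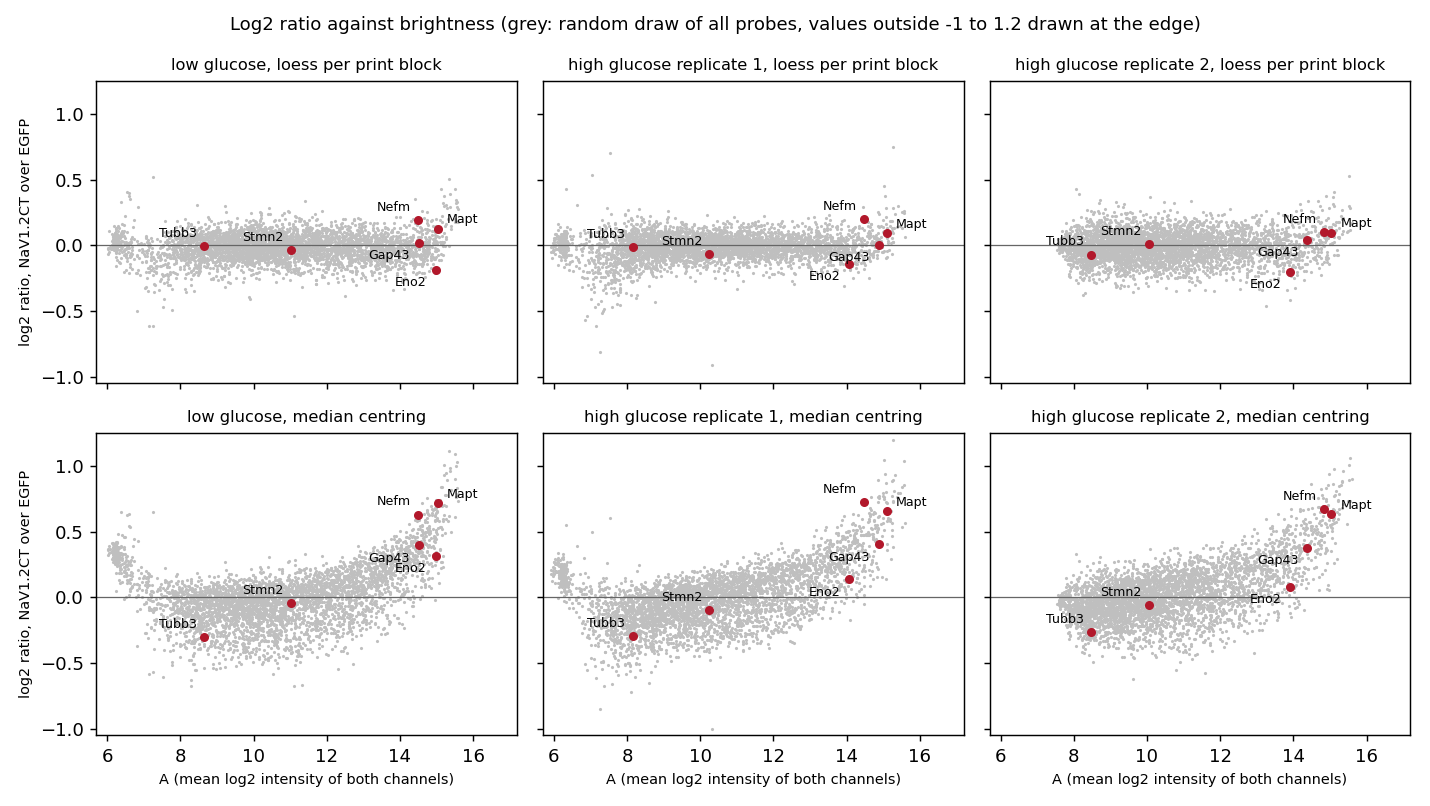
Log2 ratio of NaV1.2CT over EGFP (vertical axis) against A, the mean log2 intensity of both channels (horizontal axis), per array after loess per print block (top) and after median centring (bottom). Grey points are a random draw of all probes and red points the 6 genes. In the lower row the cloud bends upward above an A of about 13, and Nefm, Mapt, Gap43 and Eno2 lie on that bend.

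The array itself offers a measure of how far one RNA can vary between spots, since 231 control spots for the housekeeping gene GAPDH were printed on each array. Their log2 ratios after loess had an SD of 0.057 at low glucose and of 0.047 and 0.071 on the high glucose arrays. Averaged over the 3 arrays, they ranged from -0.16 to 0.15. The Nefm mean of 0.16 lay above all 231 of these means, and the Eno2 mean of -0.18 lay below all 231. The share of all probes that lay beyond the control means was not counted. Over all probes the SD per array was larger than that of the control spots, at 0.0993 to 0.111. Mapt lay above 224 of the 231 control means, Gap43 above 157, and Tubb3 and Stmn2 above 49 each. On single arrays 0 to 8 control spots were above Nefm, and 0 to 1 control spots were below Eno2.

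Whether the plasmid ratio differed between the glucose labels was tested directly as low minus high glucose, with the lone low glucose array assumed to vary like the others. In this test 0 of the 6 genes passed limma's threshold, and 0 had an unadjusted p under 0.05, against 0.0276% and 7.50% of all probes. Differences in log2 ratio ran from -0.014 for Eno2 to 0.041 for Nefm, with adjusted p-values of 0.915 to 0.999 in limma. The interval of the difference was -0.13 to 0.21 for Nefm and -0.18 to 0.15 for Eno2, so both intervals include differences about as large as the ratios themselves.

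The level in each channel was also set out by glucose label, on a log2 scale after the channels of all arrays were brought to 1 distribution of average intensity. Only 1 array carried low glucose, so array and glucose cannot be told apart, and no test was made. The Eno2 spot gave 14.96 with EGFP at low glucose and 14.19 on both high glucose arrays. With NaV1.2CT it gave 14.78 at low glucose and 14.05 and 13.98 at high glucose. Low minus high was thus 0.77 with EGFP and 0.76 with NaV1.2CT, or 1.71-fold and 1.69-fold. Stmn2 differed in the same direction, by 0.36 with EGFP and 0.35 with NaV1.2CT. Tubb3 differed by 0.14 and 0.18. Nefm was lower at low glucose, by -0.43 with EGFP and -0.39 with NaV1.2CT. Gap43 differed by -0.38 in both channels, and Mapt by -0.19 and -0.16. For all 6 genes the low glucose value lay outside the range of the 2 high glucose arrays in both channels, as it did for 79.0% of all gene spots. The SD of low minus high over all probes was 0.90 with EGFP and 0.89 with NaV1.2CT, so each of these differences was smaller than that spread, and the SD between the 2 high glucose arrays was 0.41 to 0.42.

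Related genes were followed in 9 lists of 88 genes that cover intermediate filaments, tubulins, microtubule-associated proteins, stathmins, growth cone proteins, enolases, tau kinases, axonal motors and microtubule-severing proteins. The 78 measured genes include the 6. Over the 3 arrays 2 of the 78 rose with NaV1.2CT after loess (Nefm and Tubb4b), 2 fell (Eno2, which is positive with median centring, and Klc2) and 74 did not pass. These 4 of 78 stand beside the 3.85% of all probes. Their median log2 ratio was 0.010, beside -0.0034 for all probes. At high glucose 0 rose in limma's test and 1 fell, Klc2, beside 0.689% higher and 1.42% lower of all probes. At an unadjusted p under 0.05 limma counted 11 of the 78 higher and 6 lower there, beside 22.2% of all probes in either direction.

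Klc2, a light chain of the cargo motor kinesin-1, had log2 ratios of -0.21 at low glucose and -0.45 and -0.21 at high glucose. Its mean over the 3 arrays was -0.29 ± 0.14 (SD, n = 3; limma, adjusted p = 0.0266), and at high glucose it was -0.33 (limma, adjusted p = 0.0359). Its direction was the same with median centring, at -0.54. Tubb4b, a widely expressed beta tubulin, had log2 ratios of 0.20, 0.33 and 0.14. Its mean was 0.22 ± 0.098 (SD, n = 3; limma, adjusted p = 0.0321), and it was 0.20 after a second loess over intensity (limma, adjusted p = 0.0413). Its average A of 15.4 lies where the median of all probes was itself 0.13 to 0.14 after loess. Tubulin genes are close in sequence, and whether this spot reads other tubulins too was not tested.

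Besides these 4, no gene of the lists passed after loess, and each list is given by its extremes. Of 7 intermediate filament genes, all had mean log2 ratios above 0, from 0.0087 for the heavy neurofilament gene Nefh to 0.16 for Nefm, and only Nefm passed. Only 4 of the 7 had the same sign on all 3 arrays. Over all probes, 10467 of 21761 had a mean above 0. The light neurofilament gene Nefl had -0.11 at low glucose and 0.11 and 0.033 at high glucose, with a mean of 0.011 (limma, adjusted p = 0.904). Of 15 tubulins, 5 had means above 0, and the lowest was Tubb6 at -0.10 (limma, adjusted p = 0.112). Of 13 microtubule-associated protein genes, 0 passed limma's test, with Mapt the highest and Map1a, which binds axonal and dendritic microtubules, the lowest at -0.11 (adjusted p = 0.146). Among the 4 stathmins the highest was the neuronal Stmn3 at 0.17, which missed the threshold (limma, adjusted p = 0.0534) and passed after a second loess (0.0432), and the lowest was Stmn1 at -0.034 (0.582).

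Of 13 growth cone genes, 0 passed limma's test. They ran from Dpysl5 at -0.15 (adjusted p = 0.0517) to Dpysl3 at 0.14 (0.0766), both of the collapsin response mediator family that acts in axon guidance. In the enolase list the ubiquitous Eno1 was at 0.022 (limma, adjusted p = 0.726) and the muscle enolase Eno3 at -0.020 (0.775), while Eno2 alone passed. Of the tau kinases, Mark4 was lowest at -0.14 (limma, adjusted p = 0.0787) and Ttbk2 highest at 0.043 (0.606) among those above the empty spots on every array. Of the axonal motors Kif1a was highest at 0.010 (limma, adjusted p = 0.8998). Of the microtubule-severing genes, 0 of 5 passed limma's test, and among those above the empty spots on every array Fign was lowest at -0.038 (adjusted p = 0.638).

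**Figure D4:**
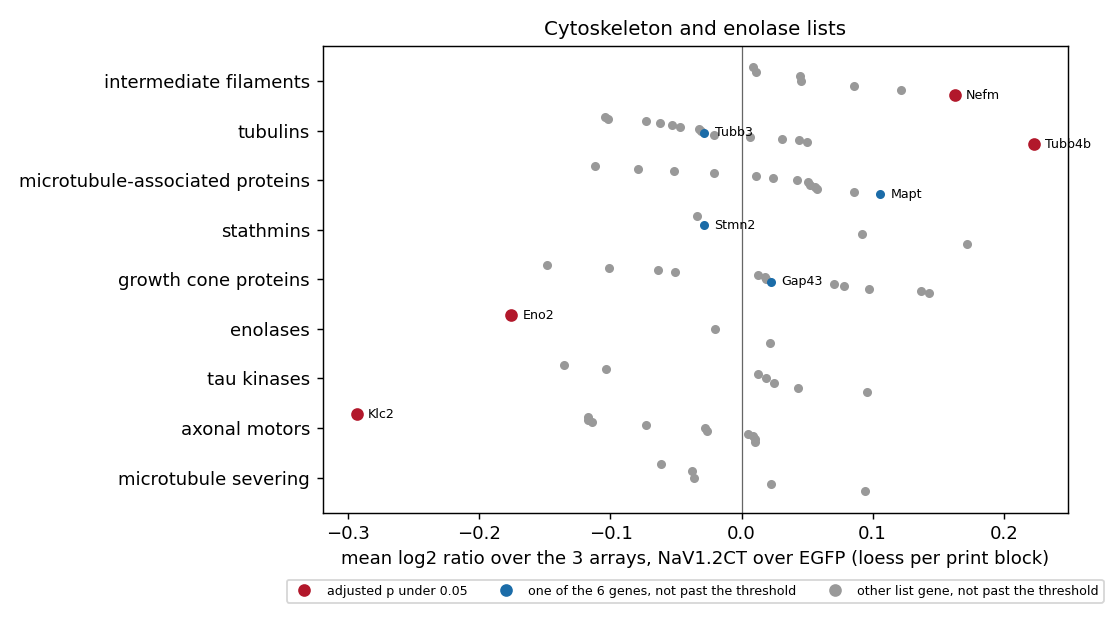
Mean log2 ratio of NaV1.2CT over EGFP over the 3 arrays after loess per print block (horizontal axis) for 78 genes in 9 lists (vertical axis), 1 point per gene at its brightest probe. Red points passed limma's test at an adjusted p under 0.05 (Nefm, Tubb4b, Eno2 and Klc2), blue points are those of the 6 genes that did not, and grey points are the other list genes. Eno2 turned to a positive value with median centring.

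The genes whose 3 log2 ratios lay nearest to those of the 2 called genes, by Euclidean distance, were named as a description. For Nefm they were Hes7, a transcriptional repressor of the segmentation clock, at a distance of 0.018, and Rbis at 0.020, and 24 named genes lay within 0.05. Hes7 had log2 ratios of 0.21, 0.19 and 0.10. For Eno2 they were 6430710C18Rik at 0.011 and 4930445N18Rik at 0.013, and 55 named genes lay within 0.05. The pattern of either gene over these 3 arrays was thus one that other named genes had too.

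**Figure D5:**
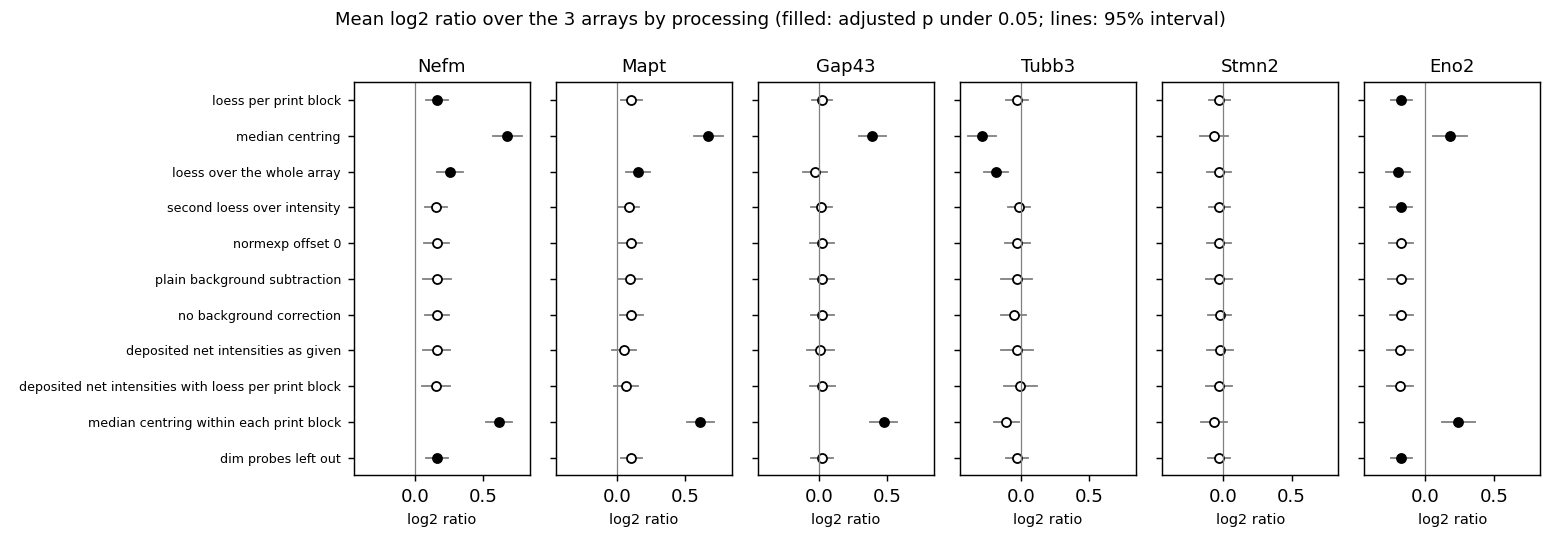
Mean log2 ratio of NaV1.2CT over EGFP over the 3 arrays (horizontal axis) for each of the 6 genes (panels) under each processing (vertical axis), with limma's 95% interval. Filled points passed at an adjusted p under 0.05. Nefm stays between 0.16 and 0.68, and Eno2 is negative except under both kinds of median centring, where it is 0.18 and 0.24.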

How the data were processed

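N1E-115 RNA was measured on 3 arrays with 23232 spots each. Per the file headers, the authors deposited a mean raw intensity and background per channel, a net intensity, an EGFP over NaV1.2CT ratio of net intensities and a z-score per spot. The net NaV1.2CT intensity had been rescaled before it was deposited, by a median factor of 1.23 to 1.25 over raw minus background. The factor differed between spots and ran from about 0.90 to 1.59 over most gene spots of the 3 arrays. The scanner and the software are not given in the sources used here. The authors deposited a score per spot, headed z-score, with no formula in the file headers, that equals the series value table. It was checked but not tested.

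Raw intensity was corrected with limma 3.58.1 in R 4.3.3 (normexp, offset 50), turned to log2 NaV1.2CT over EGFP and fitted with loess per print block, with 1235 empty spots at weight 0. Spots of one probe were averaged, and lmFit and eBayes tested 21761 probes with Benjamini-Hochberg adjustment at 0.05, two-sided. The code was tested on simulated data. The members and the lists were chosen with earlier results of these data known. The text names all 6 genes, list genes that passed, the highest and lowest gene of each list above the empty spots on every array, and the 2 nearest genes of each called member. One gene that this rule names is not reported here. Probe names were brought to current symbols through RefSeq's gene table where it held them. Of the probes, 3183 had no name. Alternatives changed the normalization, the background correction, the starting values, the filter on dim probes and the arrays used. A median centring within each print block was added after seeing the data. Probe sequences were not used here.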

Additional observations from a re-analysis of the deposited data

How the results depend on the processing

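Each log2 ratio already pairs both RNAs of 1 array. No paired analysis was possible because the glucose groups, which lie on different arrays, share fewer than 2 replicate numbers. Over the 3 arrays 2 of the 6 genes passed limma's test after loess per print block. The number was 5 with median centring, 4 with loess over the whole array, 4 with median centring within each print block, 1 after a second loess over intensity, and 0 with an offset of 0, plain background subtraction, no background correction, or the deposited net intensities as given or with loess. It was 0 to 1 when an array was left out. The share of all probes passing moved along, from 0.00460% for the deposited intensities with loess to 40.4% with median centring (1 and 8793 probes, against 837). It was 34.9% with loess over the whole array, 27.1% with median centring within each print block and 3.68% after the second loess. At high glucose the 6 genes gave 0 calls, but 4 with median centring, with loess over the whole array and with median centring within blocks. Under these 3 settings 37.3%, 35.1% and 27.2% of all probes passed, in that order. Leaving out 1 high glucose array leaves a single array there and gives values without a test.

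Eno2 turned sign with median centring, to 0.18 over the 3 arrays and 0.11 at high glucose, and with median centring within blocks, to 0.24 and 0.18. Gap43 turned to -0.028 and -0.044 with loess over the whole array. Nefm, Mapt, Tubb3 and Stmn2 kept their sign over the 3 arrays in all 13 alternatives each. At high glucose Stmn2 turned to 0.0079 when the first high glucose array was left out.

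Low minus high glucose gave 0 calls among the 6 genes under every alternative that allows a test, and signs turned as follows. With median centring the differences became -0.072 for Nefm, 0.21 for Eno2, -0.024 for Tubb3, 0.0056 for Gap43 and 0.030 for Stmn2. With loess over the whole array they became -0.020, 0.028, -0.044, 0.048 and 0.054 in the same order. With median centring within blocks they became -0.037 for Nefm, 0.19 for Eno2, 0.026 for Gap43 and 0.00089 for Stmn2. Gap43 became 0.0052 after the second loess, 0.00099 with an offset of 0, 0.00095 with plain subtraction, 0.018 with the deposited intensities and 0.0078 with their loess, which turned Stmn2 to 0.0016. Without the second high glucose array, where no test is possible, Nefm became -0.0074, Gap43 0.017 and Stmn2 0.030, and without the first Eno2 became 0.017.

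In the lists, genes higher and lower over the 3 arrays numbered 2 and 2, but 26 and 12 with median centring, 16 and 14 with loess over the whole array, 24 and 4 with median centring within blocks, and 0 to 3 and 1 to 1 without an array (0 higher without the low or the first high glucose array). At high glucose 0 and 1 became 22 and 9, 14 and 15, and 23 and 4 in the same order, and 1 gene was higher after the second loess. Of all 21761 probes, 254 passed higher and 583 lower over the 3 arrays after loess per print block. These numbers became 4293 and 4500, 3045 and 4559, and 3707 and 2180 in the same order. For the high glucose comparison 150 and 309 of all probes became 4021 and 4090, 3268 and 4380, and 3536 and 2385. The cause of these changes was not tested, other than the brightness and block values given with the results.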
